A study of Rattus norvegicus with 49 samples.

Results

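The genes described here are 9 interferon-stimulated genes, Irf7, Isg15, Usp18, Ifit2, Ifit3, Mx1, Mx2, Oas1a and Rsad2, measured in the thyroid of male Sprague Dawley rats on 49 one-colour microarrays. The labels number the arrays of a group as replicates and describe groups of individual rats, so each array is called a rat here. The members were chosen by name from the interferon pathway, and a probe was taken for a member when its RefSeq accession belonged to that gene. All 9 had a probe, with 10 features between them because Usp18 had 2, among the 30367 features on the array and the 15154 gene symbols these carried. The rats were injected intravenously with the radioiodine isotope iodine-131, which the thyroid takes up and which decays with the emission of beta particles and gamma rays, or were left untreated.

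Rats injected at 5 weeks of age (young) received 0.5, 5, 50 or 500 kBq and were killed 9 months later, at 10 months of age, with 4, 3, 4 and 4 arrays. Other young rats received 50 kBq and were killed after 3 or 6 months, at 4 or 7 months of age, with 4 arrays each. Rats injected with 50 kBq at 17 weeks of age (adult) were killed after 3, 6 or 9 months, at 7, 10 or 13 months of age, with 4 arrays each. The untreated groups were 4 months (4 arrays), 7 months (3 arrays), 10 months (4 arrays) and 13 months (3 arrays) old, and each exposed group was compared with the untreated group of its age. The untreated 10-month group thus served 5 exposed groups and the untreated 7-month group served 2, so those comparisons are not independent of each other.

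Interferons are secreted when a cell senses foreign or misplaced nucleic acid. Type I interferons bind the receptor chains Ifnar1 and Ifnar2, and the kinases attached to these switch on Stat2, which together with Irf9 is part of the factor that binds the interferon-stimulated response element of target genes. The products of these genes degrade or trap viral RNA, tag proteins, and feed back on the pathway, and most cell types keep a low basal level of them.

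Of the 49 arrays, 3 stood apart and were also left out in a second fit to 46 arrays, chosen after the data were seen. Replicate 2 of the young 50 kBq 3-month group was dim, with a 75th percentile signal of 61 against 783 to 4172 on the other 48 arrays and 43.11% of spots well above background against 69.2% to 82.46%. Replicate 3 of the same group and replicate 2 of the untreated 7-month group went against their tissue label, with thyroglobulin (Tg) at 0.14 and -0.69 where the 46 arrays lay between 6.41 and 7.91, and with the muscle creatine kinase Ckm at 8.91 and 8.15. On the 46 arrays the thyrocyte gene Tg was bright throughout, while Ckm ranged from -1.65 to 7.7 and the parathyroid hormone gene Pth from -7.77 to 7.21, so the dissected tissue held varying amounts of neighbouring tissue. Replicates 1 and 2 of the adult 50 kBq 6-month group, and replicates 1 and 2 of the untreated 13-month group, were nearly identical, with 4 and 32 probes differing over 4-fold against a median of 462 over the 1035 pairs of the 46 arrays. The labels give each array its own replicate number but do not say from which animal it came, so each pair may be one rat measured again. They were kept as separate samples. Values with each pair averaged are given for adult rats at 6 months and for Mx1 and Mx2 at 13 months. The pathway and marker differences between groups were not recomputed that way. The 3 untreated 13-month arrays were the dimmest of the 46, with a 75th percentile signal of 1333 to 1441 against 1478 to 4172 on the other 43.

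Levels below are log2 of the processed signal minus the log2 of that array's 75th percentile, so 0 is a probe as bright as the 75th percentile and a difference of 1 is a doubling. Levels are compared between arrays for one probe and never between probes. Since whole tissue was used, fewer cells of a type and less RNA per cell cannot be told apart in any value that follows.

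The promoters are shown because the members are named for a shared response to interferon through this element. A RefSeq promoter entry was found for 5 of the 9 members, on build GRCr8, each covering 250 bases before to 50 bases after the gene start in that table. The core of the interferon-stimulated response element, searched on both strands as GAAANNGAAA, was present in 4 of the 5 windows, those of Irf7, Ifit3, Rsad2 and Oas1a, and in 3.92% of all 33469 promoter windows of the same length. Mx1 had no match to these letters in its window. The 120 bases around each match are given below with the match in capitals, which reads GAAANNGAAA on the printed strand in Oas1a and its reverse complement in the other genes. They lie at chr1:205800028-205800147 on the minus strand for Irf7, chr1:241527227-241527346 on the plus strand for Ifit3, chr6:48788203-48788322 on the minus strand for Rsad2 and chr12:41330370-41330489 on the plus strand for Oas1a.
Irf7: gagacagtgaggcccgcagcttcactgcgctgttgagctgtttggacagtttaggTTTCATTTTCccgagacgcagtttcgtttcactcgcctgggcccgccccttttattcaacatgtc
Ifit3: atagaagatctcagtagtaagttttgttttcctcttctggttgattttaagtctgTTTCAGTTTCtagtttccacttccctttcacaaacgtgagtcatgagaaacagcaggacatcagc
Rsad2: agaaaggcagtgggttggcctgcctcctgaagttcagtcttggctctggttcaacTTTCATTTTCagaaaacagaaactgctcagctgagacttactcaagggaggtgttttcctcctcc
Oas1a: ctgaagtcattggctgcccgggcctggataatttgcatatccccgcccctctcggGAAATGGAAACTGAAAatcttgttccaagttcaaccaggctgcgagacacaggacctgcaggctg
The match began 69 bases before the start in Irf7, 44 in Ifit3, 147 in Rsad2 and 41 in Oas1a, where a second match overlapping the first began at 35. These distances are from the start used in the promoter entry. For Irf7 the stretch shown lies wholly inside the gene span printed in the next paragraph, which uses another start. The starts also differ in Oas1a and Rsad2. The Oas1a match lies inside the gene span printed for it below, and the Rsad2 match lies outside its own. The gamma-activated site core, searched as TTCNNNGAA, was found in Oas1a alone of the 5 and in 8.87% of all windows.

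Irf7, the transcription factor that amplifies type I interferon production (chr1:205796956-205800543, GRCr8), had overlapping levels in the groups. In untreated 10-month rats it measured -0.26, -0.57, 1.04 and 0.14, and 9 months after 500 kBq it measured 0.10, 0.60, -0.68 and 0.54. After 50 kBq in young rats it measured -0.89, 0.10, -0.60 and -0.50 at 9 months. The 3 groups overlapped, and the difference from the untreated rats was 0.05 ± 0.38 (SE) after 500 kBq and -0.56 ± 0.38 after 50 kBq, with an adjusted p of 1 for both in limma over all 49 arrays. Its lowest group mean over 46 arrays was -0.58, in adult rats 9 months after 50 kBq, and its highest was 0.14, after 500 kBq. The SD within groups was 0.54 and that of the 13 group means 0.24, so rats of one group differed more than the groups did.

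Isg15 (chr5:172066369-172067656), the ubiquitin-like protein that is attached to other proteins during the response, varied as widely among untreated as among exposed rats 10 months old. In untreated 10-month rats it measured -0.36, -1.17, 0.52 and 0.02, and 9 months after 0.5 kBq it measured -1.03, -0.15, -0.42 and -0.73. After 5 kBq it measured -0.32, 0.04 and -0.56, after 50 kBq -1.13, -0.34, -0.77 and -0.87, and after 500 kBq -0.26, 0.32, -0.77 and 0.69. Every exposed group overlapped the untreated one, and the levels were in no order of activity. The highest array of all 46 was a young rat 6 months after 50 kBq, at 0.77, and the lowest an untreated 4-month rat, at -1.43.

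Usp18 (chr4:156143770-156171292) is the protease that removes Isg15 from proteins and also restrains signalling at the interferon receptor. Over 46 arrays its lowest group mean was that of untreated 4-month rats, where it measured -3.02, -1.92, -3.28 and -3.34. It measured -1.0, -2.16 and -2.49 at 7 months, the second of these on the array low in thyroid transcripts, and -2.18, -3.00, -1.21 and -1.52 at 10 months. At 13 months it measured -2.40, -2.38 and -3.34. The untreated groups overlapped one another, and the highest and lowest arrays of the gene among all 46, at -1.0 and -3.34, were both untreated rats. On its other probe the untreated means were -3.845 at 4 months and -3.873 at 13 months.

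Ifit2 (chr1:241515735-241521799) and Ifit3 (chr1:241527326-241532469) lie next to each other and encode tetratricopeptide-repeat proteins that bind RNA or other proteins and limit translation of viral RNA. Ifit2 measured -2.77, -2.73 and -3.19 after 5 kBq and -2.56, -2.59, -2.16 and -2.72 in the untreated rats of the same age. All 3 exposed arrays lay below all 4 untreated ones, as did 6.81% of all probes in that comparison. The difference was -0.39, with a two-sided exact permutation p of 0.0571 where 0.0286 was the smallest possible. Ifit3 in young rats 3 months after 50 kBq measured -3.95, 0.06, -4.46 and -4.42, the second on the dim array, against -4.23, -4.43, -5.28 and -4.65 in untreated 4-month rats. The difference of 1.45 ± 0.52 over 49 arrays (adjusted p = 0.0466, limma) was 0.46 ± 0.33 (adjusted p = 0.581) over 46, where the group kept 2 arrays. Without replicate 4 of that group, and with the dim array in, it was called at an adjusted p of 0.00935.

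Mx1 (chr11:50269056-50294699) and Mx2 (chr11:50375101-50399373) encode dynamin-like GTPases that bind viral nucleoproteins. The 2 genes are close in sequence and the probe sequences were not used here, so signal shared between them was not tested. Mx2 was the steadiest member, with an SD within groups of 0.21 over 46 arrays, and the only one whose group means spread more widely (SD 0.26) than rats within a group. It measured 3.91, 3.81 and 3.75 in untreated 13-month rats, and 3.24, 3.05, 3.47 and 3.18 in adult rats of that age exposed 9 months earlier. It measured 2.67, 3.16, 3.12 and 2.88 in untreated 4-month rats. The 3 untreated 13-month rats were above every other array of the 46. In young rats 3 months after 50 kBq it measured 2.81, 5.32, 3.45 and 2.62, the second on the dim array, and the difference from untreated rats was 0.59 ± 0.29 over 49 arrays and -0.25 ± 0.19 over 46. Mx1 measured 1.49, 1.49 and 0.74 in the untreated 13-month rats and -0.33, 0.47, 0.74 and -0.27 at 4 months, where the 2 groups met at 0.74. Its highest array, at 2.26, was a young rat 6 months after 50 kBq whose group-mates measured 1.11, 0.93 and 0.00.

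Oas1a (chr12:41330423-41341130) makes the 2-5A messenger that switches on RNase L and belongs to a family of close paralogs, so signal from these was likewise not tested. Over 46 arrays it ranged from -3.79, in a young rat 9 months after 50 kBq, to -0.95, in an untreated 7-month rat. Rsad2 (chr6:48774985-48788245), which encodes viperin, an enzyme that makes a chain-terminating nucleotide, was the most variable member, ranging from -3.39 to -0.26 with an SD within groups of 0.75. Both extremes of Rsad2 were young rats given 50 kBq, killed after 3 and 6 months. Taken over the 13 groups ordered by mean, each group overlapped its neighbour in 12 of 12 steps for 8 members and in 11 of 12 for Mx2, where the step up to the untreated 13-month group was clear.

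**Figure D1:**
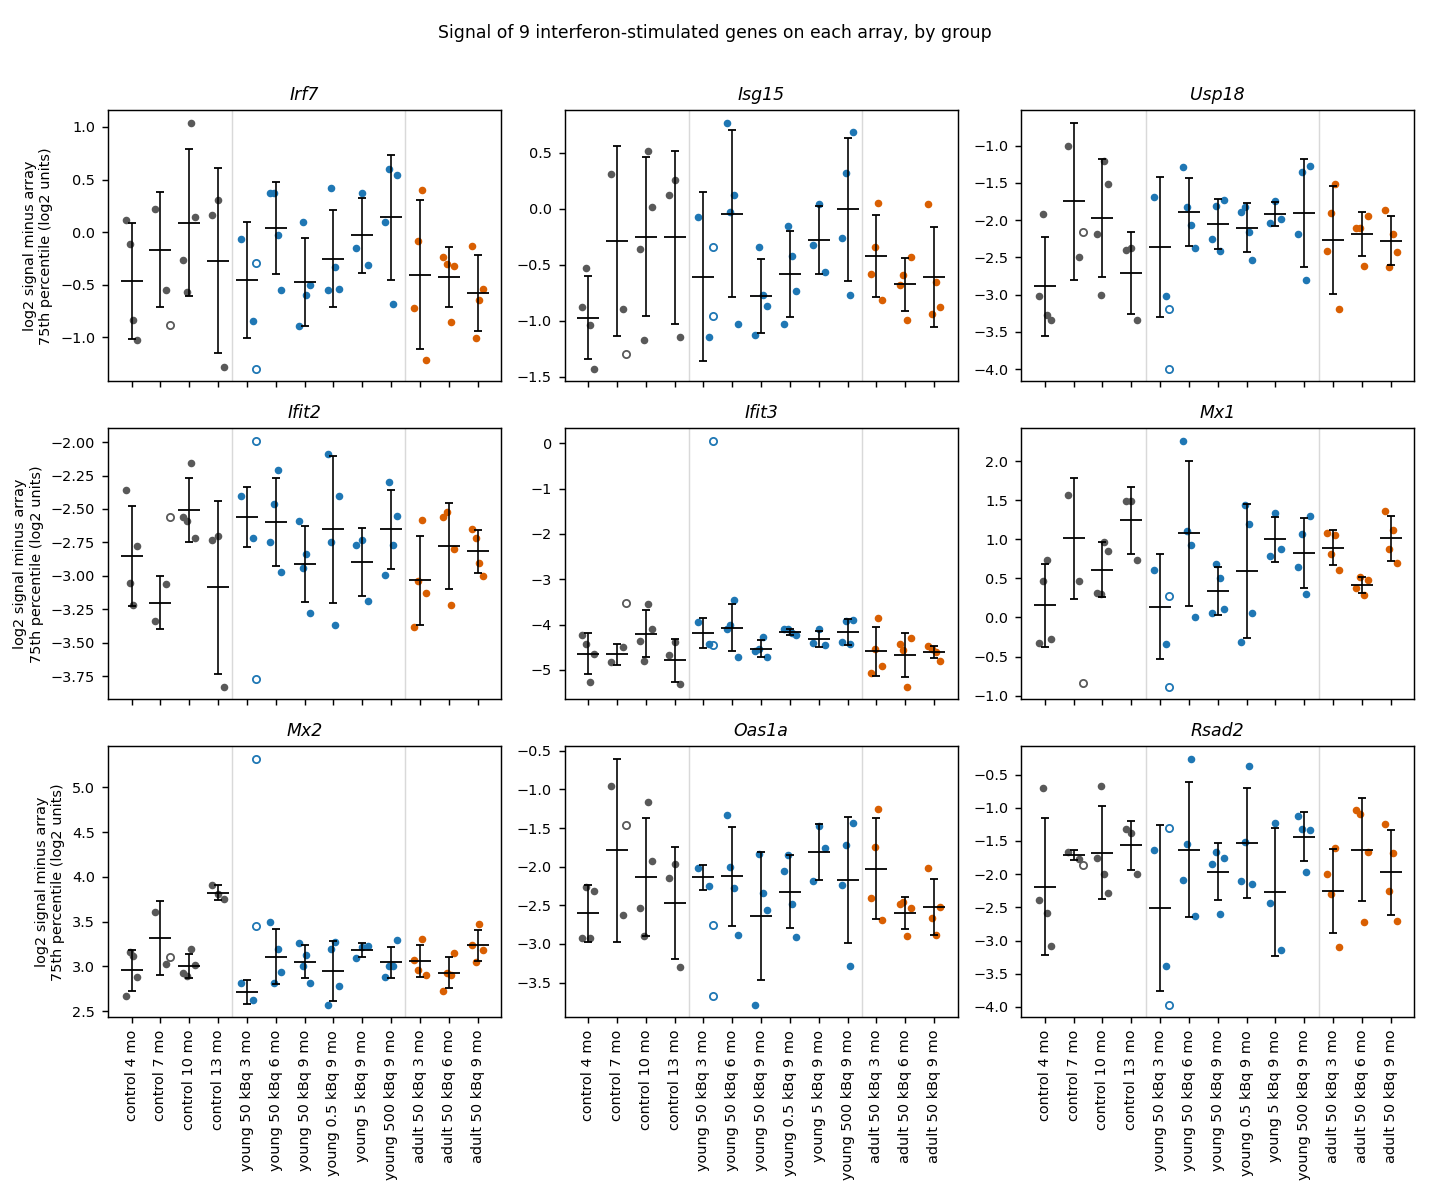
Levels of the 9 genes on each array (y axis, log2 signal minus the 75th percentile of the array) by group (x axis), with untreated rats in grey, young rats in blue and adult rats in orange. Bars give the mean ± SD of the filled points, and open circles are the 3 arrays left out of the 46. Groups that are neighbours when ordered by mean overlap in every panel except that of Mx2. There the untreated 13-month rats lie at 3.75 to 3.91, above the other filled points.

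Exposure was tested first across activity, 9 months after injection of young rats. Calling a gene required a fold over 1.5 and an adjusted p (Benjamini-Hochberg over the 25284 features tested together) below 0.01. None of the 9 members was called after 0.5 kBq (0% of all features called over 49 arrays and 0% over 46), 5 kBq (0.0119% and 0.0119%), 50 kBq (0.0119% and 0.0119%) or 500 kBq (0% and 0%). No member had an unadjusted p below 0.05 in these 4 comparisons either. The median difference of the 9 members was -0.13, -0.03, -0.34 and 0.05 with rising activity, beside medians of 0.00, -0.02, 0.04 and 0.06 over all features. After 50 kBq 8 of the 9 members were lower than in the untreated rats, and after 500 kBq 7 of 9 were higher. The direction after 50 kBq held whichever single rat was left out, though the median moved between -0.43 and -0.18. The direction after 500 kBq depended on single rats. Without untreated replicate 3 the median after 50 kBq was -0.18, with 7 of 9 lower, and after 500 kBq 2 of 9 were higher without untreated replicate 2 and 3 of 9 without exposed replicate 4. Within the scan dates shared with the untreated rats the median after 50 kBq was -0.31 (2 against 3 arrays) and -0.88 (2 against 1), and after 500 kBq it was -0.18 in the only shared one (1 against 1).

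Time after 50 kBq in young rats gave the same count of calls. At 3 months 0 of 9 members were called, with 0.0119% of features called over 49 arrays and 0% over 46. At 6 months 0 of 9 were called, beside 0% and 0.0237%. Over 46 arrays the member with the largest difference at 6 months was Ifit2, at 0.60 ± 0.30 (adjusted p = 0.49, limma), followed by Ifit3 at 0.59 ± 0.33, and both rest on the 2 untreated arrays kept at 7 months. All exposed arrays at 6 months were of the first scan date and no untreated 7-month array was. Exposure and scan date thus could not be compared within a date there. With scan date as a block over 49 arrays, Ifit2 differed by 0.23 ± 0.33 and Ifit3 by 0.42 ± 0.62. Usp18 had the largest difference at 3 months, 0.54 ± 0.49, in the 2 arrays kept there.

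In adult rats given 50 kBq, 0 of 9 members were called at 3 months (0% of features over 49 arrays and 0.0356% over 46), 6 months (0% and 0%) or 9 months (0.558% and 8.93%). At 6 months 8 of 9 members were lower than in untreated rats, with a median of -0.27 against 0.06 over all features. The median was -0.14 without untreated replicate 3, -0.15 without exposed replicate 3 and -0.56 without untreated replicate 2, with 8 of 9 lower each time. Within the 2 shared scan dates it was -0.02 (1 against 3 arrays) and -0.81 (2 against 1). With the near-identical pair averaged, the 6-month differences of the 9 members ranged from -0.57 (Irf7) to -0.05 (Mx2), taken from 49 arrays. At 9 months 6 of 9 were lower, with a median of -0.23 against -0.14, but within the one shared scan date (2 against 2) 8 of 9 were higher, with a median of 0.20, and leaving out single arrays moved the median between -0.48 and -0.02. Mx2 had the largest difference at 9 months, with a mean of 3.24 ± 0.18 (SD, n = 4) in exposed and 3.82 ± 0.08 (n = 3) in untreated rats. All 4 exposed arrays lay below all 3 untreated ones, as did 16.4% of all probes in that comparison, and the exact permutation p was 0.0286, the smallest that 4 against 3 arrays allow. In limma the difference of -0.59 had an adjusted p of 0.277 over 49 arrays and 0.012 over 46, neither below 0.01, and within the shared scan date it was -0.47. With the near-identical 13-month pair averaged to leave 2 untreated samples, it was -0.57, with an adjusted p of 0.489 from 49 arrays and 0.0562 from the 46, and the exact permutation p became 0.0667, the smallest possible. Of the 81 exact tests of 9 members in 9 exposure comparisons over 46 arrays, 54 could fall below 0.05, since in the other 27 the smallest possible p was 0.0667. The test of Mx2 was the one below 0.05, and it was not adjusted for their number. The untreated 13-month arrays had a 75th percentile signal of 1333 to 1441 and the exposed ones 2426 to 3580, and the part of this in the difference was not tested.

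**Figure D2:**
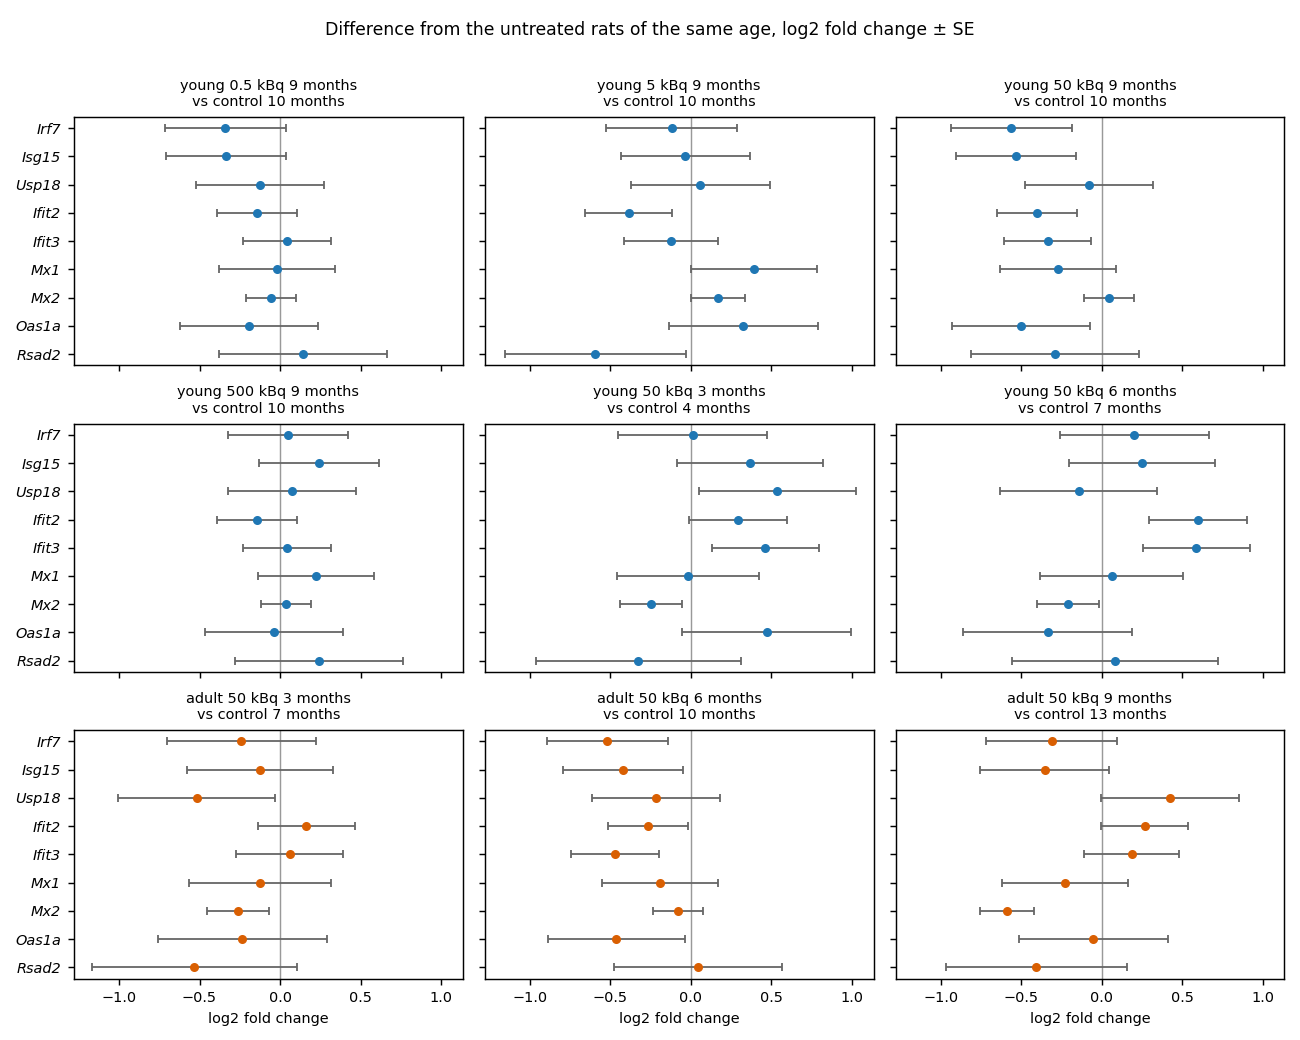
Difference of each gene from the untreated rats of the same age (x axis, log2 fold change, fit to 46 arrays) in the 9 exposed groups, with young rats in blue and adult rats in orange. Points are estimates and bars are standard errors; no gene was called, and Mx2 in adult rats at 9 months, at -0.59, is the point whose 95% interval left out 0.

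The intervals show what these group sizes could resolve. Over 46 arrays 80 of the 81 exposure differences had a 95% interval that included 0. Mx2 was resolved most finely, with a median half-width of 0.34, and Rsad2 least, at 1.14. The widest bounds were -1.83 for Rsad2 and 1.54 for Oas1a, so single members could differ by over 2-fold within the interval of some comparisons.

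Whether adult and young rats answered 50 kBq differently was tested as the difference between their effects at the same time after injection. At 3 months 0 of 9 members were called, beside 0% of features over 49 arrays and 0.00791% over 46. At 6 months 0 of 9 were called, beside 0% and 0.00791%, and at 9 months 0 of 9, beside 0% and 2.23%. Over 46 arrays Ifit3 and Ifit2 had adult minus young differences of -1.06 ± 0.43 and -0.87 ± 0.39 at 6 months, with adjusted p of 0.464 and 0.508 in limma. In the young part of these, exposed and untreated rats shared no scan date. With scan date as a block over 49 arrays the 2 values were -1.01 ± 0.86 and -0.44 ± 0.46. At 9 months Mx2 had one of -0.63 ± 0.23 (adjusted p = 0.0747), and the other members ranged from -0.12 to 0.67.

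Age was compared in the untreated rats, against those 4 months old. At 7 months 0 of 9 members were called (0.00396% of features over 49 arrays and 0.0277% over 46) and at 10 months 0 of 9 (0.0119% and 0.0119%). All 9 members were higher at 10 than at 4 months, with a median difference of 0.47, while 46.75% of all features were higher and their median was -0.02. None was called. The median was 0.23, with 8 of 9 higher, when untreated 10-month replicate 3 was left out, the rat with the highest mean over the 9. Within the only scan date that held both groups (3 against 2 arrays) the median was 0.08, with 6 of 9 higher and Ifit3, Irf7 and Rsad2 lower by differences of -0.095, -0.23 and -0.025. Usp18 had the largest difference, 0.91 ± 0.42 (adjusted p = 1 over 49 arrays and 0.592 over 46), and its other probe gave 1.00 ± 0.38. At 7 months Usp18 again had the largest, 1.01 ± 0.45 over 49 arrays (adjusted p = 0.576) and 1.15 ± 0.49 over 46 (adjusted p = 0.304).

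At 13 months 0 of 9 members were called over 49 arrays, where 5.15% of features were, and 1 of 9 over 46 arrays, where 21.9% were. The share of members called was thus no higher than that of all features. The member was Mx2, with a mean of 3.82 ± 0.08 (SD, n = 3) against 2.96 ± 0.23 (n = 4). The difference of 0.86 ± 0.17 (SE, 46 arrays) had an adjusted p of 0.000256 in limma, and it was 0.86 ± 0.32 with an adjusted p of 0.0492 over 49 arrays. All 13-month arrays lay above all 4-month ones, as did 21.5% of all probes, and the exact permutation p was 0.0286, the smallest possible. Of the 27 age tests 18 could fall below 0.05, and this was the one that did, while in the 9 at 7 months the smallest possible p was 0.0667. With the near-identical pairs averaged the 13-month group held 2 samples, and the difference of 0.85 had an adjusted p of 0.14 when taken from 49 arrays and 0.00316 when taken from the 46, and the exact permutation p was 0.0667, again the smallest possible. The 75th percentile signal was 1738 to 3234 on the 4-month arrays, above that of all 3 at 13 months, and the part of this in the Mx2 and pathway values was not tested. Within the first scan date it was 0.92 (2 against 2 arrays) and within the second 0.80 (1 against 2). Mx1 differed by 1.09 ± 0.44 over 49 arrays (adjusted p = 0.0738) and 1.09 ± 0.39 over 46 (adjusted p = 0.0259). With the near-identical pairs averaged, taken from 49 arrays, Mx1 differed by 0.96 ± 0.51 (adjusted p = 0.224, limma). In that fit 2 of the 27 age differences changed sign, those of Irf7 (-0.062) and Oas1a (-0.075) at 13 months.

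**Figure D3:**
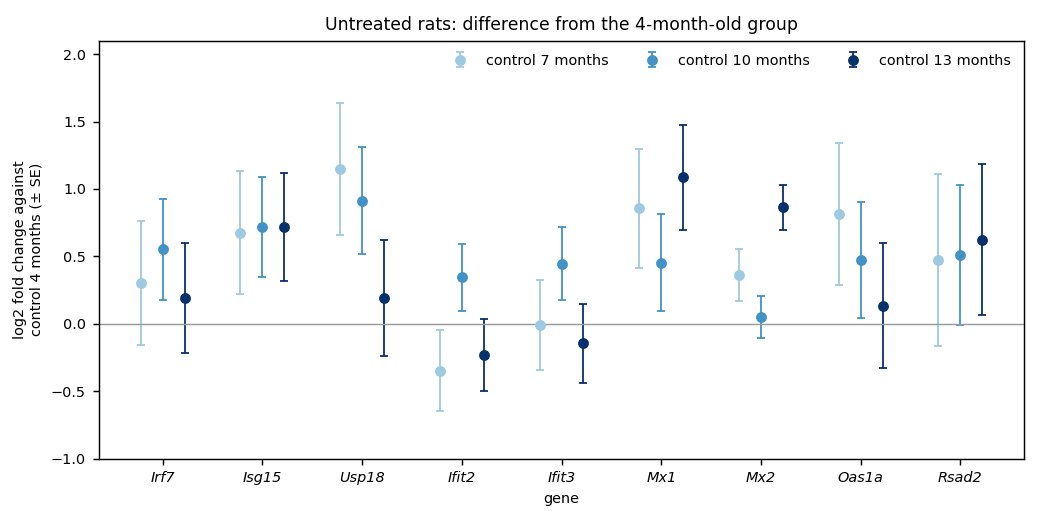
Difference of each gene in untreated rats of 7, 10 and 13 months (light to dark blue) from those of 4 months (y axis, log2 fold change, fit to 46 arrays; bars, standard error). All 9 genes lie above 0 at 10 months, and Mx2 at 13 months, at 0.86, is the only called value.

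Tissue markers moved with the comparison of 13 and 4 months. The list of 9 follicular thyrocyte genes had a median difference of 1.68, with 4 called higher (Foxe1, Duox2, Nkx2-1 and Pax8), and its mean level lay between 0.78 and 1.15 on the 13-month arrays and between -1.44 and 0.79 on the 4-month ones. The 4 skeletal muscle genes had a median of -2.84 and the 4 squamous epithelium genes one of -6.36. The 8 macrophage genes had a median of -0.27, with Adgre1 and Mrc1 called lower, and 1 of 4 plasmacytoid dendritic cell genes, Irf8, was called higher. Calca (3.35) and Ret (1.64) of the 3 C cell genes and Kdr (1.08) of the 4 endothelial genes were called higher too. These calls are from the fit to 46 arrays, and of them Kdr alone was also called over 49. In the fit to 46 arrays 14.7% of all features were called higher and 7.22% lower in this comparison. For adult rats at 9 months against untreated 13-month rats the thyrocyte median was -0.83, with Foxe1 of the 9 called lower over 46 arrays. There 3.34% of all features were called higher and 5.58% lower. Kdr and Pecam1 of the 4 endothelial genes, and Irf8 (-1.84) of the 4 plasmacytoid dendritic cell genes, were called lower too. Of the 8 macrophage genes Adgre1 (1.414) and Csf1r (1.198) were called higher there, and of the 8 T lymphocyte genes Cd4 (1.275). The mean level of the plasmacytoid dendritic cell list was 0.04 in exposed and 0.48 in untreated rats. That of the T lymphocyte list was 0.24 and -0.05. The part of these marker differences in the Mx2 values was not tested.

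The other genes of the pathway, 75 with a tested feature, were grouped by role. Over 49 arrays 2 of the 75 were called, both higher in untreated rats at 13 than at 4 months, which is 2.67% of them beside 3.05% of all features called higher there. These were Trim25, a ubiquitin ligase that acts on the RNA sensor RIG-I, at 1.20 (adjusted p = 0.00636, limma), and Psmb10, an immunoproteasome subunit, at 0.90 (adjusted p = 0.00747). Over 46 arrays 20 were called higher and 2 lower in that comparison, or 26.7% and 2.67% of the 75 beside 14.7% and 7.22% of all features, with a median of 0.54 against 0.19 over all features.

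By role, over 46 arrays and from 4 to 13 months, where 14.7% of all features were called higher, the signal transduction genes had 4 of 10 called higher, led by Irf8 at 2.07 ± 0.38 and with Stat2, a component of the interferon-activated factor, at 1.35 ± 0.28, Irf1 at 0.83 ± 0.22 and Irf3 at 0.75 ± 0.18. Of 30 antiviral effectors 10 were called higher and 1 lower. Dtx3l and Parp9, partners in a ubiquitin ligase complex, differed by 1.66 ± 0.34 and 1.17 ± 0.29, and Trim21, a cytosolic antibody receptor, by 1.56 ± 0.28. Adar, Lgals3bp, Parp14, Sp110, Trim25 and Oas1b were called higher by 0.59 to 1.36, and Tor3a was lower by a difference of -1.21. Oas2 was not well above background on any 4-month array, and its mean was at least 2.51-fold higher at 13 months. The lowest 13-month array and the highest 4-month array both measured -7.02, so its fold is uncertain.

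Of 6 nucleic acid sensors only Dhx58, a RIG-I-like helicase, was called (1.66 ± 0.41), and of 4 negative regulators only Socs3, an inhibitor of JAK kinases (1.26 ± 0.32). The interferon gamma response list had 3 of 16 called, with Igtp at 0.66, Psmb10 at 0.90 and the chemokine Cxcl11 at 2.84. Cxcl11 was not well above background on any 4-month array and was so on 2 of 3 at 13 months, so its fold is uncertain. Of those 3 arrays 2 are the near-identical pair, which may be one rat. Among 5 receptor genes Il10rb, a chain of the type III interferon receptor, was called at 0.88, while Ifnlr1 had the largest difference, 1.25 (adjusted p = 0.0403). Neither of the 2 measured ISG15 conjugation genes was called, with Ube2l6, the conjugating enzyme, at 0.90 (adjusted p = 0.0148). Of the 2 measured ligand genes Ifna5 was called lower at 13 months, by a difference of -3.24. It was not well above background on any 13-month array and was so on 2 of 4 at 4 months, so its fold is uncertain.

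In adult rats 9 months after 50 kBq, against untreated 13-month rats and over 46 arrays, 1 of the 75 was called higher and 4 lower, or 1.33% and 5.33% beside 3.34% and 5.58% of all features, so the shares were no larger than those of all features. Tor3a was higher by 1.20 ± 0.32. Irf8, Dtx3l, Trim21 and Irf3 had differences of -1.84 ± 0.38, -1.25 ± 0.34, -1.13 ± 0.28 and -0.66 ± 0.18. All 5 were also called between 13 and 4 months, with which this comparison shares its untreated 13-month rats. No pathway gene was called in any of the other 8 exposure comparisons or in the 3 adult minus young comparisons, over 49 or 46 arrays.

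Rat-to-rat variation was shared between members. With group means removed, 34 of the 36 pairs of members had a positive Pearson correlation over 46 arrays, with a median r of 0.48 and a range of -0.16 to 0.88. Arrays were permuted within groups 100000 times, and 24 of the 36 pairs had an adjusted p below 0.05 for r and 27 for Spearman's rho. Isg15 and Irf7 had r = 0.88 and rho = 0.90 (permutation p = 1e-05 for both, the smallest possible, adjusted over the 36 pairs to 4e-05). Without the 2 arrays farthest from the median of Isg15, r was still 0.88, and within the 3 scan dates it was 0.86 (23 arrays), 0.92 (13) and 0.94 (10).

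Isg15, Irf7, Usp18 and Oas1a correlated with one another at 0.81 to 0.88, and Isg15 with Mx1 at 0.82. The neighbours Mx1 and Mx2 had r = 0.75 and rho = 0.74 (permutation p = 3e-05 and 4e-05), and Ifit2 and Ifit3 had r = 0.71 and rho = 0.74 (permutation p = 1e-05 for both). Ifit2 did not follow the Mx genes, with r = -0.06 against Mx1 and -0.16 against Mx2 (permutation p = 0.785 and 0.413). Rsad2 correlated with the other members at 0.18 to 0.42. In 33 of the 36 pairs r was positive within each of the 3 scan dates.

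**Figure D4:**
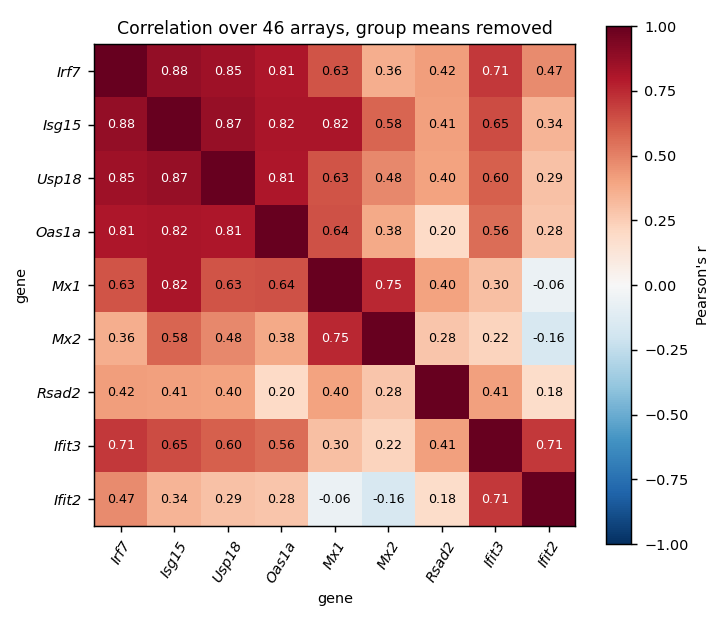
Pearson's r between each pair of the 9 genes (both axes) over 46 arrays after the mean of each group was subtracted, on a colour scale from -1 (blue) to 1 (red). Isg15, Irf7, Usp18 and Oas1a form a block at 0.81 to 0.88, and Ifit2 is near 0 against Mx1 and Mx2.

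The mean of the 9 members, each centred on its mean over the 46 arrays, ranged from -0.62 in an untreated 4-month rat to 0.68 in an untreated 10-month rat. Its mean per group lay between -0.34 ± 0.33 (SD, n = 4), in untreated 4-month rats, and 0.26 ± 0.47 (n = 4), in young rats 6 months after 50 kBq. Within a single group it spanned up to 1.06, in the latter group and in adult rats at 3 months.

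**Figure D5:**
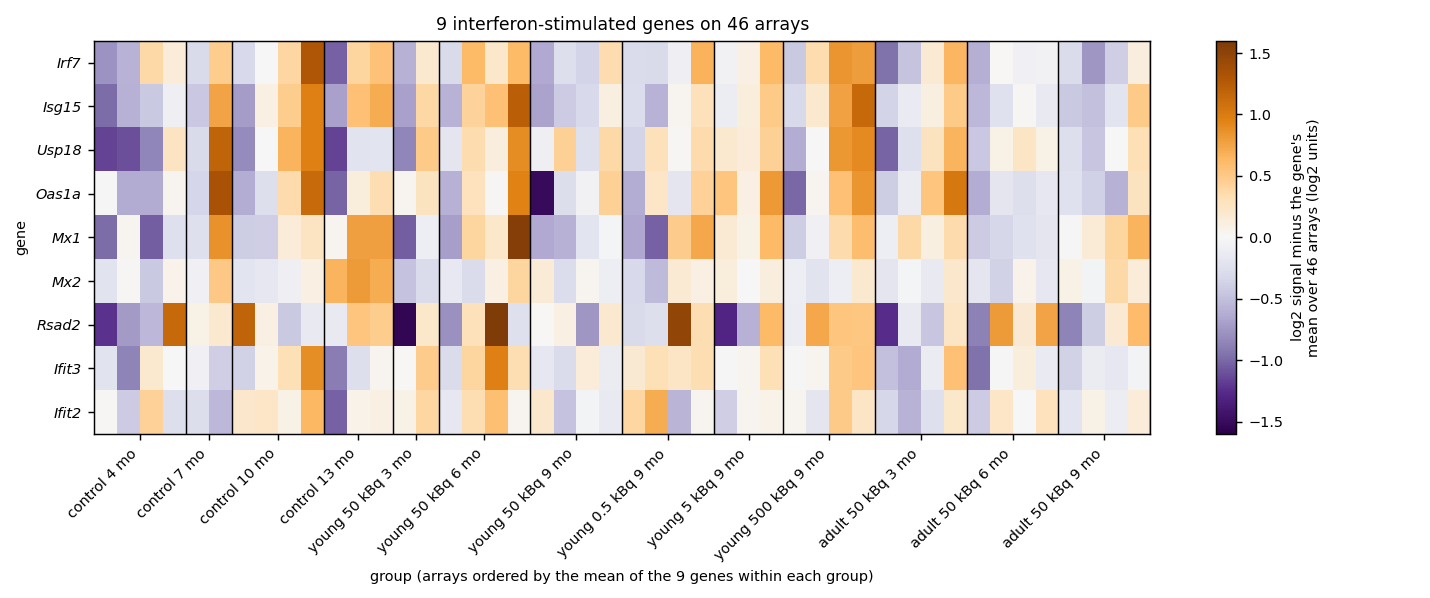
Level of the 9 genes (rows) on 46 arrays (columns, by group and ordered within a group by the mean of the 9), as the difference from the mean of the gene over the 46 arrays in log2 units, from purple (low) to orange (high). Most groups run from rats with low to rats with high levels of several genes, with means of the 9 from -0.62 to 0.68.

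The 10 genes whose pattern was most like the mean of the 9, by Pearson's r over 49 arrays among 10772 other symbols, were Oasl2 (0.77), Ifgga2l1 (0.76), Rtp4 (0.74), RGD1309362 (0.70), Slfn4 (0.68), Psmb8 (0.67), Ifi27l2b (0.63), Oas1k (0.62), Ube2l6 (0.61) and Eif2ak2 (0.60). Among them Oasl2 and Oas1k belong to the oligoadenylate synthetase family, Psmb8 is an immunoproteasome subunit, Ube2l6 is the conjugating enzyme of Isg15, and Eif2ak2 is the RNA-activated kinase that halts translation. With group means removed, over 46 arrays, their r lay between 0.61 (Eif2ak2) and 0.87 (Ifi27l2b). These values share the arrays, their scaling and their tissue composition, and they are given as a description.

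Among 68 pathway genes measured on enough arrays the median r with group means removed was 0.51, and 34 were over 0.5, against a median of 0.04 and 2.11% over 0.5 for all 10772 candidates. Irf9 and Stat2, both part of the interferon-activated factor, had r of 0.64 and 0.36, and the receptor chain Ifnar1 had 0.45. Mavs, the adaptor below the RNA sensors, had r = -0.63, and the ligand genes Ifna4 and Ifna5 both had -0.35.

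The mean level of 11 lists of cell type markers was correlated with the mean of the 9 over the 46 arrays, group means removed, and p-values were adjusted over the 11. The largest correlation was that of the 4 measured plasmacytoid dendritic cell genes (r = 0.60, adjusted permutation p = 0.00352; rho = 0.60, adjusted p = 0.0033), 2 of which, Irf8 and Tlr7, belong to the interferon response themselves. Tlr7 was well above background on 17 of the 46 arrays and Spib on 40. Siglech and Tlr9, also in that list of 6, had no tested probe and are not in its mean. The 8 T lymphocyte genes had r = 0.50 and rho = 0.50 (adjusted permutation p = 0.0188 and 0.0157). Of these Cd2 was well above background on 10 of the 46 arrays, Cd3e on 13, Cd8a on 23, Lck on 32 and Cd247 on 44. The 4 skeletal muscle genes passed for rho alone, at -0.46 (adjusted permutation p = 0.0176), with r = -0.20 (0.368). The 8 macrophage genes (r = 0.34, adjusted permutation p = 0.205), the 9 thyrocyte genes (r = 0.22, adjusted permutation p = 0.368) and the other 6 lists did not pass. The 75th percentile signal of the array had r = 0.34 and rho = 0.38 (permutation p = 0.0509 and 0.0287). The part of these in the shared variation was not tested.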

How the data were processed

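Total RNA from flash-frozen thyroid was labelled with Cy3 and hybridised to Agilent rat 8x60K arrays by the authors, and the deposited files hold the signal intensity of each spot from Agilent Feature Extraction 10.7.3.1, already background-corrected by that program. The labels also name Partek, and the study's methods name Nexus Expression for the analysis; the test it used is not given in the sources used here. Here the log2 of the deposited intensity minus the log2 of the 75th percentile of each array was used. Control spots and outlier spots were left out, spots of one probe were averaged, and the probe of the highest mean was used for a gene. Probes well above background on at least 3 arrays were tested. Symbols came from RefSeq accessions (17998 of 30367 probes). Groups came from the labels, which number replicates within groups of individual rats. One mean per group was fitted with limma 3.58.1 in R 4.3.3 (lmFit, eBayes), with Benjamini-Hochberg adjustment over all tested probes and the study's cut-offs, an adjusted p of 0.01 and a fold of 1.5. The study's design names 52 rats, and 49 arrays were analysed here. Their number limits the precision. Exact two-sided permutation tests and correlations were run in Python 3.11.15 with numpy 2.4.6. Replicate numbers did not pair samples.

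The members, the pathway lists and the marker lists were chosen with earlier results of these data known. The genes named were all 9 members, every listed gene called in any of 15 comparisons, the gene of the largest difference per pathway list where most members differed, the 10 most alike, and the cell type markers. The tests were checked on simulated data. Alternatives were quantile and normexp scaling (median signal, offset 50), filters, blocks for slide, scan date and replicate, array weights, fits of fewer groups, and each array left out in turn.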

Additional observations from a re-analysis of the deposited data

Results flagged for a closer look

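In groups of 4 arrays, each member's highest and lowest array was compared with the rest by its gap to the nearest array over the range of the group. Of 90 combinations of a member and a group, 2 passed the 95% limit for such a gap, where chance gives about 1 in 20, or 4.5. Ifit3 in young rats 3 months after 50 kBq measured 0.06 on replicate 2, with the nearest array at -3.95 and the other end at -4.46, and this is the dim array. Irf7 in adult rats 6 months after 50 kBq measured -0.85 on replicate 3, with the nearest at -0.33 and the other end at -0.24.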

How the results depend on the processing

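Counts are of the 9 members called. Calls were added by a slide block (1 at untreated 13 against 4 months, Mx2), an adjusted p of 0.05 (1 there, Mx2, and 1 in young rats at 3 months, Ifit3), the fit to 46 arrays (1, Mx2) and the same with the near-identical pairs averaged (1, Mx2). Array weights called 4 in young rats at 6 months, 4 in adult rats at 3 months, 1 in adult rats at 9 months, 5 at untreated 7 against 4 months, 3 at 13 against 4 months, 2 in the adult minus young difference at 6 months and 1 at 9 months. These weights ran to extremes, with 203, 0.261 and 6.24e-34 for the 3 untreated 7-month arrays, 1.82e-05, 42 and 2.55 for those at 13 months and 0.000449 for the dim array, so the 7-month comparisons rested on 1 untreated array, and a gene-by-gene estimate was added after the data were seen, and it called 1 in adult rats at 9 months (Mx2), 3 at 13 against 4 months (Isg15, Mx1 and Mx2) and 1 in the adult minus young difference at 9 months (Mx2). Leaving out each array in turn gave 0 to 1 calls in young rats at 3 months (Ifit3 without replicate 4) and 0 to 1 at 13 against 4 months (Mx2 without the dim array), and 0 in the other 13 comparisons. The fit with the replicate number as a block called 0 members in every comparison. The numbers did not pair samples, with a median r of deviations of -0.015 for the same number in different groups and 0.004 for different numbers. Of the 30 calls made by alternatives other than leaving out one array, 2 had the other sign from the fit to 49 arrays, both with array weights in adult rats at 3 months, where Isg15 was -0.69 against 0.21 and Mx1 -0.69 against 0.49. Over the alternatives other than leaving out one array in turn, 40 of 81 exposure differences, 21 of 27 age differences and 8 of 27 adult minus young differences kept their sign throughout. The 46-array set, its averaged form, the averaged pairs over 49 arrays and the gene-by-gene weights were chosen after seeing the data. Groups of 2 to 4 rats and 95% intervals with a median half-width of 0.79 limit what exposure differences could be resolved.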
